A study of Rattus norvegicus with 8 samples.

Results

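Inducible inflammatory enzymes were followed in wounded skin of newborn rats: the nitric oxide synthase Nos2, the arginase Arg1 and the cyclooxygenases Ptgs2 and Ptgs1. Their probes were all non-control spots whose printed name ends in the Ensembl ID of one of these genes, which are ENSRNOG00000011023 for Nos2, ENSRNOG00000013304 for Arg1, ENSRNOG00000002525 for Ptgs2 and ENSRNOG00000007415 for Ptgs1. This gave 10 of the 38948 probes printed, 4 for Nos2 and 2 for each other gene. The symbols were supplied with that rule, because the array files give only IDs. The wounded group consists of 4 samples of dorsal skin from Long-Evans pups that received a 3-mm incision at 3 days of age, collected at the wound 36 h later. The control group consists of 4 samples from the matching site of unwounded Long-Evans pups, whose age at collection is not stated separately. No other treatment or genotype is given for either group, and whether each sample is a separate pup or a pool is not stated. P-values therefore describe the spread between these samples, some of which may be technical.

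Both pairs of enzymes act on a shared substrate. The cyclooxygenases turn arachidonic acid into the precursor from which all prostaglandins and thromboxane are made: Ptgs1 is present in many resting tissues, while Ptgs2 is switched on by cytokines, growth factors and injury. Nos2 makes nitric oxide from arginine and is known from activated macrophages, neutrophils and keratinocytes, whereas Arg1 splits arginine into ornithine and urea, and ornithine feeds the synthesis of polyamines and proline during tissue repair.

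The region just before the start of each cyclooxygenase gene is shown because the 2 isoforms are known for different regulation. RefSeq's table on the GRCr8 build held an entry for these 2 of the 4 genes. The Ptgs2 sequence is chr13:64713813-64714062 and the Ptgs1 sequence is chr3:39981169-39981418, both on the plus strand and both ending at the base before the start. Capitals mark matches, on either strand, to 7 motifs searched: the NF-kappaB consensus, TTNNGNAA for C/EBP factors, CACGTG for the E-box, TGACG for the cyclic AMP half-site, TGANTCA for AP-1, TATAAA for the TATA box and GGGCGG for the GC box.
Ptgs2: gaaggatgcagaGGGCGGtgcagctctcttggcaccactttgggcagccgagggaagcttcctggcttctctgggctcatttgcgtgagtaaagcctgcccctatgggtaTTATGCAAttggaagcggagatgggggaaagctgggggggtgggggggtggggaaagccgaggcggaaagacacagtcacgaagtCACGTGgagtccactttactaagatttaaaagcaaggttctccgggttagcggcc
Ptgs1: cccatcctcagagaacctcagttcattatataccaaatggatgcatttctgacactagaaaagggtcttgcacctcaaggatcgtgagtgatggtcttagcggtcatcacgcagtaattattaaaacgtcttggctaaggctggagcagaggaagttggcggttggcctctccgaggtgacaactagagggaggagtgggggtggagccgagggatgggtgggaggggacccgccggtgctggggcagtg
In Ptgs2 the 3 matches do not overlap: a GC box at -238 to -233, a C/EBP match at -140 to -133 and an E-box at -55 to -50, counted back from the start. The Ptgs1 window held 0 matches to these letters. Among 33469 regions of the same length in the table, 30.5% held the GC box, 37.2% the C/EBP letters and 5.59% the E-box. The other shares were 6.33% for the NF-kappaB consensus, 18.2% for the cyclic AMP half-site, 6.34% for AP-1 and 12.9% for the TATA box. These matches describe letters, and no binding was measured.

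The arrays were read in one colour, and between 16930 and 20030 probes per array, 43.5% to 51.4%, were marked as found by the scanner software. Of the 10 probes of the enzymes, 7 were found on at least 4 of the 8 arrays and entered the test, which is limma with Benjamini-Hochberg adjustment over 12769 features (1 per Ensembl ID, by its brightest probe). Every enzyme thus had a tested feature. In this test 8.01% of all features were higher and 9.65% lower in wounded skin, and 45.4% of the calls were higher. That share was 55.5% with median scaling and 53.6% with cyclic loess. Among the enzymes, Nos2, Arg1 and Ptgs2 were higher, Ptgs1 did not pass and 0 were lower. The median log2 fold change was 0.97 over the 4 enzymes, with Nos2 and Ptgs2 at their lower bounds, and -0.05 over all features. On the brightest probe of each of the 4 enzymes, all 4 wounded values lay above all 4 control values, against 8.77% of all features. The probes of Nos2 and Ptgs2 met the filter only through the wounded arrays, so their separation adds no support. On the dimmer probes of Ptgs2 and Ptgs1 and on Nos2 probe Rn30021984 the groups overlapped. The file headers show that one group was scanned after the other, so scan position and wounding cannot be told apart. The skin label was not checked against marker genes, and other genes of the prostanoid and arginine pathways were not counted, since 0 of 46714 array IDs could be matched to the RefSeq gene table.

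**Figure D1:**
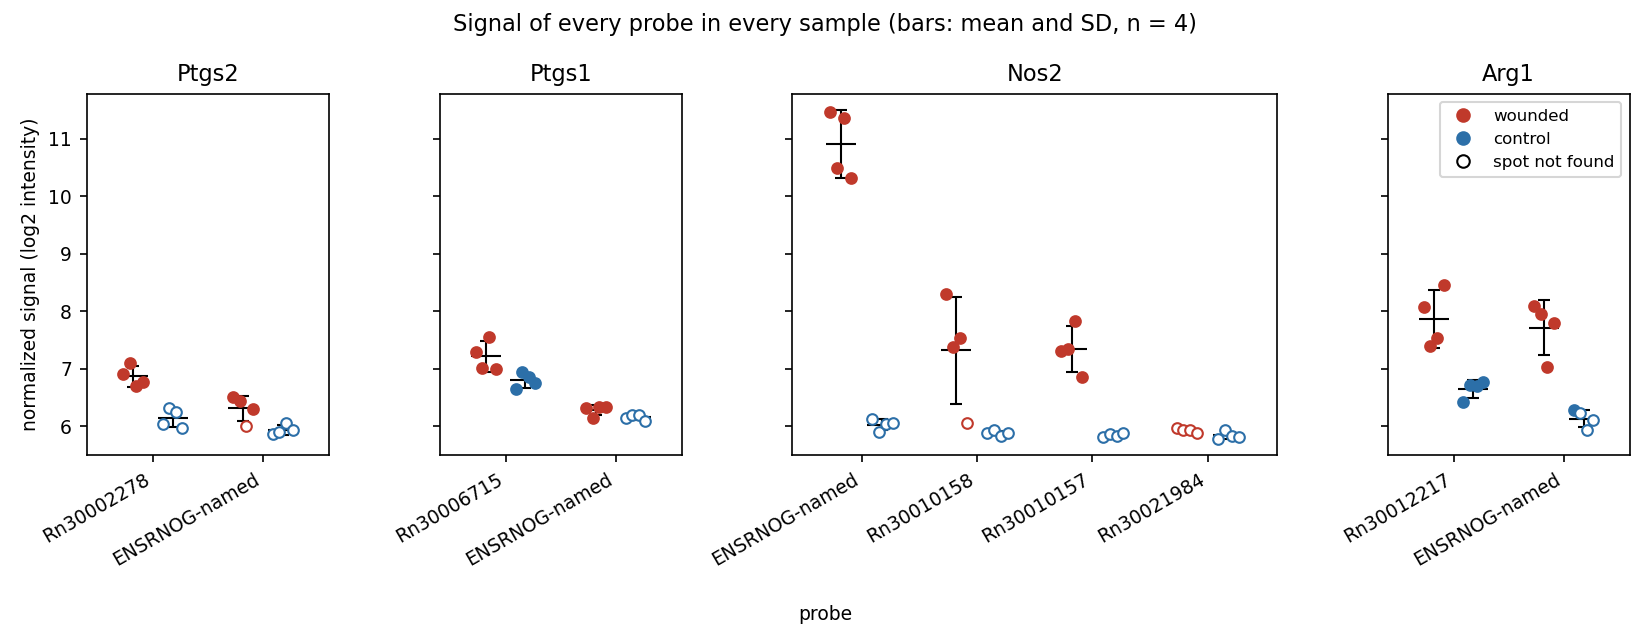
Normalized log2 intensity (vertical axis) of each of the 10 probes (horizontal axis) in the 4 wounded (red, left) and 4 control samples (blue, right), with the mean and SD as bars and open points where the spot was not found. The probe of Nos2 named by its Ensembl ID reached 10.32 to 11.46 in wounded samples, against 5.90 to 6.13 in control samples, while the probes of both cyclooxygenases stayed under 7.6.

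Nos2 had the largest change of the 4 enzymes under the reported setting. Its brightest probe, the one named by its Ensembl ID, had a median pixel intensity above local background of 3237, 1621, 2648 and 1136 in wounded samples 1 to 4, against 15, 3, 9 and 12 in control samples 1 to 4. The spot was found on 4 of 4 wounded arrays and on 0 of 4 control arrays, a pattern seen in 1.27% of features. Wounded samples 1 and 3 were the high ones, 2 and 4 were lower, and every wounded value was far above every control value. On the normalized scale the log2 signal was 10.91 ± 0.59 in wounded skin and 6.03 ± 0.10 in control skin (SD, n = 4 each). The fitted log2 fold change was 4.88 ± 0.24 (SE; limma adjusted p = 7.59e-11), and 4 of 4 wounded samples were higher. The probe met the filter only through the wounded arrays, so this separation adds no support. Since Nos2 was not found on any control array, the change is a bound of at least 29.4-fold. On each control array the bound used the signal of this probe or the dimmest found probe, whichever was brighter, and it leaves out the spread between samples. In a piece of whole skin, more cells that carry a transcript and more transcript per cell cannot be told apart, which holds for every result here.

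The other 3 Nos2 probes were dimmer. Probe Rn30010157 had 118, 123, 157 and 54 intensity units above background in wounded samples 1 to 4, against -1, 2, 1 and 4 in control samples 1 to 4. It was found on 4 of 4 wounded and 0 of 4 control arrays, and its rise was at least 2.80-fold (log2 fold change 1.48 ± 0.16, SE; limma adjusted p over all probes = 1.99e-06). Probe Rn30010158 had 296, 127, 114 and 9 units in wounded samples 1 to 4, against 2, 4, 1 and 4 units in control samples 1 to 4. Its spot was not found on wounded array 4 or on any control array, so it was found on 3 arrays and was not tested. Wounded sample 4 was thus the lowest wounded sample on each of these 3 Nos2 probes, though still above all control samples. Probe Rn30021984 was found on 0 of 8 arrays and stayed within 7 units of the background in both groups, with -2 as its lowest value. Of the 4 probes of Nos2, 2 passed the test and 1 had no found spot. Both tested rises are lower bounds that leave out the spread between samples, so their sizes are not compared. The probe sequences were not used here. With the mean of the 2 tested probes in place of the brightest, the log2 fold change of Nos2 was 3.18, and with the local background subtracted and no offset it was 7.92.

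Arg1 was higher in wounded skin on both of its probes. The brighter probe, Rn30012217, had 245, 129, 113 and 281 intensity units above background in wounded samples 1 to 4, against 35, 34, 44 and 62 in control samples 1 to 4. It was found on all 8 arrays, so its change is measured on both sides. Wounded samples 1 and 4 were high, 2 and 3 were lower, and the groups did not overlap. The log2 signal was 7.86 ± 0.50 in wounded and 6.65 ± 0.16 in control skin (SD, n = 4 each). On the log2 scale the change was 1.21 ± 0.21 (SE; limma adjusted p = 0.000416). This equals a 2.32-fold rise, with a 95% interval of 1.71-fold to 3.15-fold. The interval reflects the spread between samples at the reported setting and leaves out the treatment of background. On the log2 scale it ends at 1.66. Lowering the offset to 10 gave a log2 fold change of 1.67, and plain background subtraction gave 2.01, both above that end. Without background correction the log2 fold change was 1.33, inside the interval. At the reported setting the fitted change of Arg1 was larger than that of 97.6% of all features.

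The second Arg1 probe, named by the Ensembl ID, ordered the wounded samples differently by the median pixel. It had 249, 220, 63 and 155 units above background in wounded samples 1 to 4, against 25, 14, 5 and 15 in control samples 1 to 4. Wounded sample 3 was the low one here, while sample 2 was the lowest by normalized signal on the other probe. This spot was found on 4 of 4 wounded arrays and 1 of 4 control arrays, and its log2 fold change was 1.58 ± 0.20 (SE; limma adjusted p over all probes = 1.32e-05). Its control signals lay near background, so the size of this change depends on the offset. Both probes thus passed with the same direction, against 8.09% of all tested probes called higher. By the median pixel they do not give one ranking of the wounded samples.

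The spots of probe Rn30012217 were uneven. On 6 of the 8 arrays the mean pixel stood at least 2 times as far above background as the median pixel, which held for 1.28% to 4.58% of the found spots of an array. By the mean pixel the spot had 817, 614, 360 and 386 units above background in wounded samples 1 to 4, against 116, 100, 82 and 135 in control samples 1 to 4. Read this way, the groups again did not overlap, and wounded samples 1 and 2 were the high ones. By the mean pixel the Ensembl-named Arg1 probe had 331, 252, 112 and 175 units in wounded samples 1 to 4. Before normalization, both Arg1 probes thus ordered the wounded samples alike by the mean pixel. With the mean pixel of probe Rn30012217 the log2 fold change of Arg1 was 1.79 ± 0.17 (SE; limma adjusted p = 2.59e-06). Of the 43 found spots of the enzymes, 1 other was uneven in this sense, that of Nos2 probe Rn30010157 on wounded array 1.

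Ptgs2, the inducible cyclooxygenase, was dim and higher in wounded skin. Its brighter probe, Rn30002278, had 72, 95, 39 and 47 intensity units above background in wounded samples 1 to 4, against 9, 17, 19 and 8 in control samples 1 to 4. It was found on 4 of 4 wounded and 0 of 4 control arrays. Wounded samples 1 and 2 were the high ones, and the lowest wounded sample, number 3, still lay above every control sample. The log2 signal was 6.87 ± 0.18 in wounded and 6.14 ± 0.16 in control skin (SD, n = 4 each), a fitted log2 fold change of 0.73 ± 0.12 (SE; limma adjusted p = 0.000212). Because the control spots were not found, this is a bound of at least 1.65-fold, which leaves out the spread between samples. The 95% limma interval of the fitted value was 1.39-fold to 1.96-fold. This probe met the filter only through the wounded arrays, so the separation of the groups adds no support.

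The second Ptgs2 probe, named by the Ensembl ID, had 39, 36, 6 and 19 units in wounded samples 1 to 4, against 1, 3, 10 and 6 in control samples 1 to 4. Wounded samples 1, 2 and 4 were above all control samples by normalized signal, while wounded sample 3 lay among them. This probe was found on 3 wounded and 0 control arrays and was not tested. The size of the Ptgs2 change depended on the treatment of background. For the brighter probe, lowering the offset to 10 gave a fitted log2 fold change of 1.34, and plain subtraction gave 2.23, and it passed limma under both.

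Ptgs1, the cyclooxygenase of many resting tissues, did not pass the test. Its brighter probe, Rn30006715, had 116, 85, 116 and 65 intensity units above background in wounded samples 1 to 4, against 53, 45, 55 and 61 in control samples 1 to 4. It was found on all 8 arrays, including those of unwounded skin where no probe of Ptgs2 or Nos2 was found. Found spots of different probes do not rank the genes. All wounded values were above all control values, but the gap was small, since wounded sample 4 had a log2 signal of 6.99 and control sample 2 had 6.95. The log2 signal was 7.21 ± 0.27 in wounded and 6.80 ± 0.13 in control skin (SD, n = 4 each). The log2 fold change of 0.41 ± 0.16 (SE) had a 95% interval of 0.08 to 0.74, or 1.06-fold to 1.68-fold. Its unadjusted limma p was 0.0183 and its adjusted p was 0.0837. With the mean pixel as foreground the adjusted limma p was 0.0424 for a log2 fold change of 0.36, so the call turns on that choice.

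The second Ptgs1 probe, named by the Ensembl ID, had 26, 17, 19 and 21 units above background in wounded samples 1 to 4, against 16, 13, 16 and 14 in control samples 1 to 4. The scanner software found it on 4 wounded and 0 control arrays, although the groups overlapped on the normalized scale. Its fitted log2 fold change of 0.13 ± 0.08 (SE; limma adjusted p over all probes = 0.307) did not pass. The 95% limma interval was -0.04 to 0.30. With 0 control spots found the size could be understated, so this probe shows neither a rise nor its absence.

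**Figure D2:**
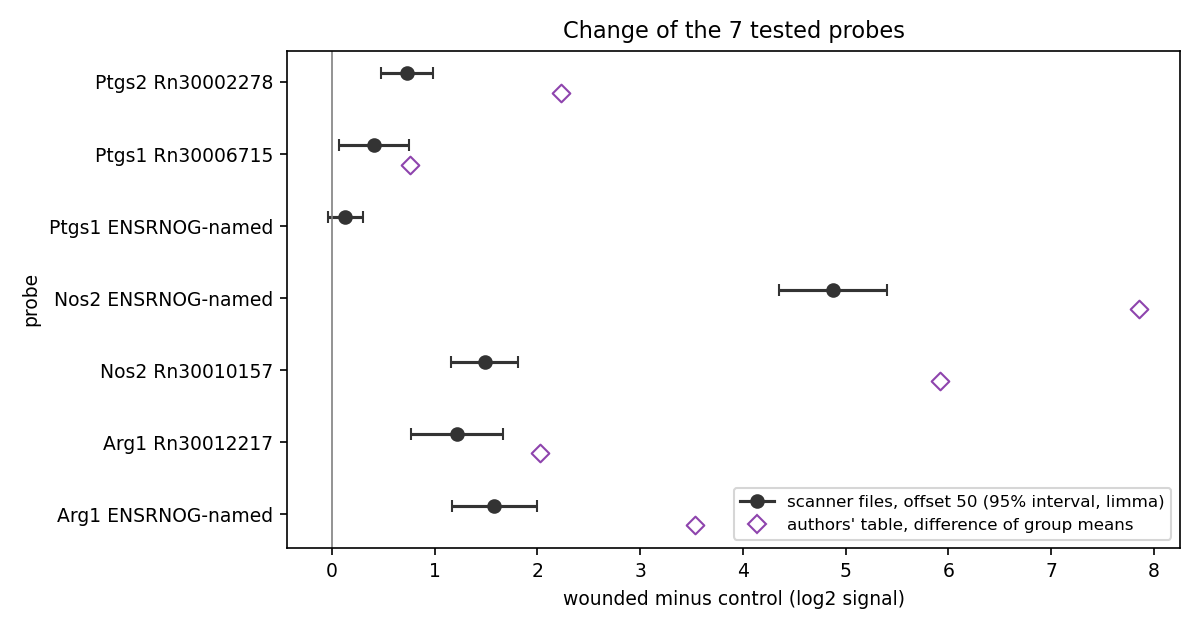
Difference of mean log2 signal, wounded minus control, for the 7 tested probes. Filled points with bars are values from the scanner files with an offset of 50 and their 95% intervals (limma), and open diamonds are differences computed from the authors' deposited table. The brightest Nos2 probe stands at 4.88 and the diamond beside it at 7.86, and each of the 6 diamonds lies to the right of its filled point.

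The authors' deposited table holds 6 of the 10 probes, and its values match log2 of the background-subtracted median pixel plus 1 constant per array (within 0.011 for at least 99.8% of the rows compared on each array). In the authors' deposited table Nos2 stood at 11.47, 10.41, 11.60 and 10.28 in wounded samples 1 to 4, against 3.58, 2.15, 3.27 and 3.33 in control samples 1 to 4. In the authors' deposited table the group means differed by 7.86 for this probe and by 5.92 for Nos2 probe Rn30010157. From the authors' deposited table the difference was 2.23 for Ptgs2, 0.76 for Ptgs1 and 2.03 for Arg1 on the brighter probe of each. For the Arg1 probe named by its Ensembl ID the authors' deposited table gave 3.535. These values carry no offset, and the control spots of the brightest Nos2 probe stood only 3 to 15 intensity units above background. Those of Nos2 probe Rn30010157 stood at -1, 2, 1 and 4 units in control samples 1 to 4. The spot at -1 has no log2 and was left out of the match above, and the authors' deposited table gives it as -0.33. In a limma fit to the authors' deposited table, Nos2 (adjusted p = 5.94e-10), Arg1 (0.000470) and Ptgs2 (0.00169) passed and Ptgs1 (0.0786) did not.

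Whether the 2 enzymes of a pair changed unequally was tested within arrays, on the difference of their log2 signals, for 2 pairs. Nos2 and Arg1 compete for arginine. Their log2 fold changes differed by 3.67, a 12.7-fold larger change of Nos2, and the within-array difference was higher in 4 of 4 wounded samples than in any control sample. The 2-sided exact permutation p was 0.0286, the smallest that 4 samples against 4 can give, and it was 0.0571 after Benjamini-Hochberg adjustment over the 2 pairs. With this number of samples 1 pair cannot pass that adjustment unless the other also reaches the smallest p. The adjusted test therefore could not decide for this pair. As Nos2 was not found in control skin, it met the filter only through the wounded arrays, so the separation behind this p adds no support. The Nos2 change is a lower bound. The subtracted Arg1 change also depended on the treatment of background, so 3.67 is no strict bound. The difference was 2.98 with the mean pixel as foreground and 1.78 with the mean of each gene's tested probes.

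Ptgs2 and Ptgs1 catalyse the same reaction. Their log2 fold changes differed by 0.31. The Ptgs2 change is a lower bound, since Ptgs2 was not found in control skin. The subtracted Ptgs1 change was also larger, 0.73, with plain background subtraction, so 0.31 is no strict bound. The within-array difference was -0.34 ± 0.39 in wounded and -0.66 ± 0.08 in control samples (SD, n = 4 each). In 3 of 4 wounded samples it lay above all control samples. The 2-sided exact permutation p was 0.2, and 0.2 after adjustment over the 2 pairs. The pass of Ptgs2 and the miss of Ptgs1 in limma therefore do not show that the isoforms changed unequally, nor that they changed alike. The difference was 1.50 with plain background subtraction and 0.46 with the mean of each gene's tested probes. Both had an unadjusted exact permutation p of 0.0286. Only the brighter Ptgs2 probe was tested, so that mean moved Ptgs1 alone, to a log2 fold change of 0.27. Without wounded sample 3 the difference was 0.48 with the same exact permutation p, which is also the smallest that 3 samples against 4 can give.

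**Figure D3:**
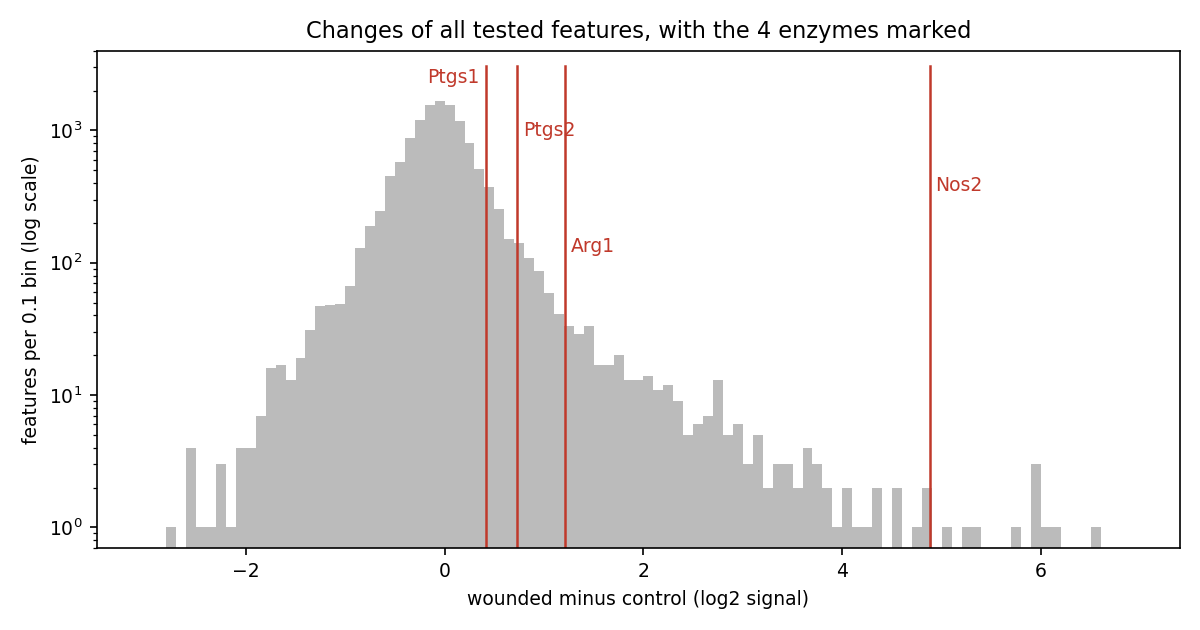
Number of features (vertical axis, log scale) by the difference of log2 signal between wounded and control skin (horizontal axis, bins of 0.1) for all 12769 tested features, with red lines at the 4 enzymes. Ptgs1 at 0.41 and Ptgs2 at 0.73 lie on the right shoulder, Arg1 at 1.21 further out, and Nos2 at 4.88 in the sparse right tail; the lines of Nos2 and Ptgs2 mark bounds.

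The array numbers in the labels fall close together for 6 arrays, while those of wounded sample 4 and control sample 1 lie apart from them and from each other. Across features, the deviations of these 2 samples from their group means correlated at 0.40. Among the other 3 wounded and 3 control samples the log2 fold change was 5.11 for Nos2, 0.94 for Arg1, 0.72 for Ptgs2 and 0.43 for Ptgs1. The first 3 passed limma (adjusted p = 4.11e-08, 0.00496 and 0.00334) and Ptgs1 did not (adjusted p = 0.105). With the 2 arrays as a block, the adjusted limma p of Ptgs1 was 0.0502. The calls were thus the same with and without these 2 arrays, and the log2 fold change of Arg1 was 1.01 without wounded sample 4 alone.

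Among the other 12768 features, the one whose signal was most like that of Nos2 over the 8 samples was ENSRNOG00000014441, with a Pearson r of 0.998. It had a log2 signal of 12.68 in wounded and 6.67 in control skin. For Arg1 it was ENSRNOG00000009373 (r = 0.993), with 11.38 in wounded and 10.50 in control skin. The highest r was 0.979 for Ptgs2 and 0.985 for Ptgs1. These values describe 8 points that fall into 2 groups, so r rests largely on the difference between wounded and control samples, and the files do not name the 2 IDs.

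**Figure D4:**
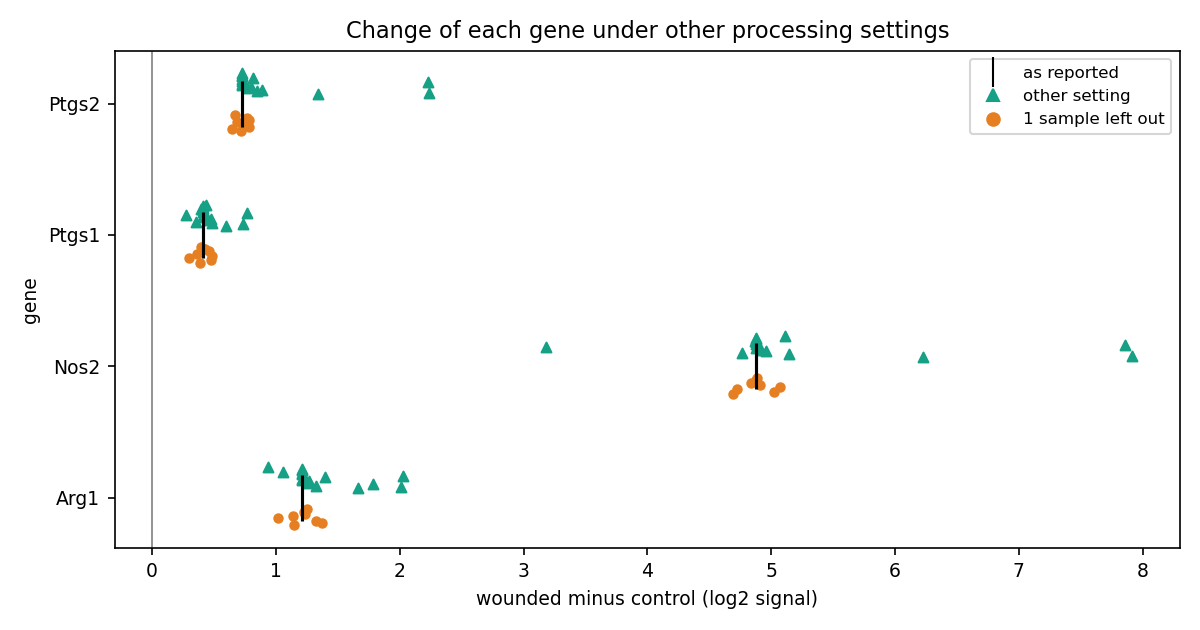
Difference of log2 signal, wounded minus control (horizontal axis), for the 4 genes (vertical axis) as reported (black line), under other processing settings (green triangles) and with 1 sample left out (orange points). With 1 sample left out the values of Nos2 stay between 4.69 and 5.07, whereas background treatment and the choice of probe move Nos2 between 3.18 and 7.92; all values are above 0.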

How the data were processed

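Per the labels' protocols, RNA of 8 skin samples was copied into cRNA carrying biotin, and each sample was hybridised to a Rat MI-Ready oligonucleotide array. Spots were read at 635 nm by GenePix Pro 4.1.1.4 and left unnormalized, per the file headers. The scanner files as deposited give each spot's foreground and local background intensity on a linear scale, and a flag that says whether the spot was found. The authors' deposited table holds log2 values for 16198 rows; the choice of its probes is not described there.

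Values were computed with limma 3.58.1 in R 4.3.3: median pixel, normexp with an offset of 50, removal of 1240 control or unnamed spots per array and of 65 spots marked bad, quantile normalization and averaging of spots per probe. The offset understates changes of dim probes. Probes found on at least 4 of 8 arrays, 19444 in all, were tested with lmFit and eBayes with a variance trend, by probe and by feature; the threshold was an adjusted p of 0.05. The number of arrays limits the precision. The method was tested on simulated arrays. The 4 genes and all lists were chosen with earlier results of these data known. Beside these genes and their probes, the naming rule takes the feature with the highest r to each gene, at most 2 IDs printed. Alternatives concerned background, foreground, normalization, filter, probe choice, the authors' values, the variance model, weights per array, blocks by sample number or by array number, and each sample left out once.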

Additional observations from a re-analysis of the deposited data

Results flagged for a closer look

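Among 20 sets of 4 values (10 probes in 2 groups), 1 value stood far from the other 3 of its group. The log2 signal of the Ptgs1 probe named by its Ensembl ID was 6.15 in wounded sample 2, against 6.31 to 6.34 in the other wounded samples. Chance sets apart about 1 in 20 such sets, and this probe did not pass the test.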

How the results depend on the processing

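Of 176 values over 24 other settings, 170 had the same direction and fell on the same side of the threshold (counts: within 1.5 times that reported; untested differences: within 1 SD), and 0 reversed. Nos2, Arg1 and Ptgs2 passed limma under each setting that tested them (adjusted p at most 4.39e-07, 0.00496 and 0.00463). Ptgs1 passed only with the mean-pixel foreground (log2 fold change 0.36), and its adjusted p was 0.0424 to 0.220 over all settings. The difference between Ptgs2 and Ptgs1 reached an exact permutation p of 0.0286 with plain subtraction (1.50), with the mean of tested probes (0.46) and without wounded 3 (0.48). Its highest exact permutation p was 0.371, without wounded 2 (0.17). Median scaling gave 780 features lower, and probes found on all 8 arrays, where Nos2 and Ptgs2 had no tested probe, gave 625 higher. What moved them was not tested. With each sample left out once, there were 842 to 1056 features higher and 880 to 1325 lower, and log2 fold changes of 4.69 to 5.07 for Nos2, 1.01 to 1.37 for Arg1, 0.65 to 0.78 for Ptgs2 and 0.30 to 0.49 for Ptgs1. The difference ranged from 3.40 to 4.06 for Nos2 minus Arg1 (exact permutation p = 0.0286 each time) and from 0.17 to 0.48 for Ptgs2 minus Ptgs1. For Nos2 minus Arg1 that p is the smallest possible, and leaving a sample out of fully separated groups could not raise it. With 3 samples against 3 neither difference was tested, since the exact test cannot reach 0.05. With a replicate block by sample number, 987 features were higher and 1079 lower, and no call of the 4 genes changed. Deviations from the group mean correlated at -0.28 to -0.01 between samples of one number, which gave no sign of pairing, though pairing was not tested. Between wounded 4 and control 1 they correlated at 0.40. With these 2 arrays as a block, 1188 features were higher and 1561 lower. The gene lists were not run. Signals near background limit Ptgs2, the Ensembl-named Ptgs1 probe, the control values of the Ensembl-named Arg1 probe and all control values of Nos2.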
